A study of Mus musculus with 17 samples.

Results

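Voltage-gated sodium and calcium channels, the HCN channels and the sodium leak channel Nalcn were examined in laser-captured mouse hippocampus with and without FOXO. The members were every probe set that carries a single gene symbol of the Scn, Cacna1, Cacna2d, Cacnb or Hcn families or of Nalcn. They made up 74 of the 45037 probe sets, and 30 of the 18193 genes that have a symbol of their own on the array. Each gene is given by 1 probe set, the one with the highest mean signal over the unmarked arrays. Further genes of these families were not analysed here.

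Sodium channels consist of a large pore-forming alpha subunit and small beta subunits, and they carry the upstroke of the action potential. High voltage-activated calcium channels (L, P/Q, N and R type) pair a pore-forming alpha1 subunit with an alpha2delta and a beta subunit, which bring it to the membrane and tune its gating, whereas T-type channels open near rest and can work as an alpha1 subunit alone. HCN channels open on hyperpolarization and are regulated by cyclic nucleotides, and Nalcn passes a steady sodium leak. Dentate granule neurons fire sparsely and rest at a strongly negative potential, while pyramidal neurons of the CA fields fire more readily.

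The KO mice carried floxed alleles of Foxo1, Foxo3 and Foxo4 and the hGFAP-cre transgene, which acts in progenitors and so deletes the genes in both neurons and glia. Mice were of a mixed FVB and B6 background, and the control samples are labelled WT, without a statement of their cre or floxed alleles. Dentate gyrus was captured by laser and its RNA hybridised to Affymetrix mouse arrays, of which 8 KO and 7 WT are unmarked and 2 more, a KO and a WT, carry a further mark, CA13, of unstated meaning. The marks of the samples (433, 437 and so on) are read as animals, which the sources do not state outright, and age and sex are not given. A p-value therefore measures the spread between these samples, part of which may be technical. In bulk tissue, fewer cells of a type and less RNA per cell cannot be told apart.

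Levels are given as log2(signal + 32) after quantile normalization, and the levels of different genes are not ranked against each other, since probe sets differ in brightness. Granule neuron markers averaged between 11.75 and 12.16 in 15 of the 17 arrays, and 8.51 and 8.49 in the other two. CA pyramidal markers averaged between 8.78 and 9.44 in the same 15 arrays, and 11.25 and 11.13 in the others, where 9 of the 10 measured genes of that list lay above every one of the 15 and the tenth, Pcp4, below, at 13.57 and 13.71 against a minimum of 14.53. The arrays of this CA profile were the unmarked library labelled KO 433 and the WT library of 437 with the CA13 mark, so the library labelled 433 without a mark goes against the dentate gyrus origin given for it. The CA13-marked KO library of 433 had the granule profile, with averages of 11.94 for granule and 9.0 for CA markers. In 437 it was thus the CA13-marked array that had the CA profile and in 433 the unmarked one. Whether the labels of the 2 arrays of 433 were exchanged was not tested, and the labels were kept. An exchange would also change which array of 433 belongs to the unmarked KO group. The log2 ratio of 3' to 5' Gapdh signal, a measure of RNA integrity, was between 5.04 and 6.41 over the 17 arrays, and at 5.92 and 5.85 in the CA-profile arrays. The 3' signal was thus far above the 5' signal in every array. The part of this in differences between probe sets of a gene was not tested. The comparison of KO with WT used the 7 unmarked KO and 7 unmarked WT arrays of the granule profile. Its values with all 15 unmarked arrays are printed for some genes only, and plotted for every channel gene beside the fold changes. A fold change printed alone is thus not one that stayed the same with 15 arrays. The sign changed for Cacna1g, from -0.01 to 0.07, and for Scn2b, from -0.0045 to 0.06, among others. By the numbers in the labels, these 14 arrays form a larger series of 10 and a smaller one of 4. The larger holds 5 arrays of each genotype and the smaller 2 of each. Both CA-profile arrays and the CA13-marked KO array of 433 carry the number of the larger series. Against the 4 arrays of the smaller series, the CA-profile arrays thus differ in series as well as profile. Foxo1 was between 12.33 and 13.95 in WT (median 13.27) and between 7.35 and 9.44 in KO (median 7.79), a log2 fold change of -5.14 ± 0.31 (SE, limma adjusted p = 4.81e-07). Foxo3 differed by -0.51, with a 95% interval of -0.87 to -0.14 (exact permutation p = 0.018). Foxo4 differed by 0.61, with an interval of 0.07 to 1.14 (exact permutation p = 0.041). Neither was called, with a limma adjusted p of 1.00 each.

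Promoter sequence was looked up because the deleted factors bind DNA at a known element. RefSeq start sites of GRCm38.p6 gave 32 windows, from 250 bases before to 50 bases after a start, for 23 of the 30 genes. Cacna1a, Cacna1g, Cacna1h, Cacna2d4, Hcn3, Scn3a and Scn3b were not matched to the table of windows used here. Both strands were searched for the FOXO element GTAAACAA and for the forkhead core TAAACA, which lies within it. The element was in 403 of 32851 windows of all genes (1.23%) and in 0 of the 32 member windows. The core was in 4416 windows (13.4%) and in 3 member windows, of Cacna1e, Cacnb4 and Cacna1d. Such a match is a description of these letters and not a binding site. The 250 bases before the start are shown for these genes, 5' to 3' along the gene, with the core or its reverse complement TGTTTA in capitals.
The Cacna1e window lies on the minus strand at chr1:154725921-154726170, and its core begins 14 bases before the start.
Cacna1e: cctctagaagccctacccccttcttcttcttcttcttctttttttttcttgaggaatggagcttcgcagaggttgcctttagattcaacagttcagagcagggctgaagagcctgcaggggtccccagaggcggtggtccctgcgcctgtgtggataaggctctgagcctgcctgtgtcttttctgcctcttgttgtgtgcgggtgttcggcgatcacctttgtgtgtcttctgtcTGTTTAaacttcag
The Cacnb4 window is 1 of 3 of that gene, on the minus strand at chr2:52558612-52558861, and its core begins 164 bases before the start.
Cacnb4: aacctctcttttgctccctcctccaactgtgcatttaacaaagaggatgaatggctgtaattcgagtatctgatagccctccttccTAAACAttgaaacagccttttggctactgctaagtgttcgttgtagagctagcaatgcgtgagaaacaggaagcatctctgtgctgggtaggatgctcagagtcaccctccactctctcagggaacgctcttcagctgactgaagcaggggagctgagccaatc
The Cacna1d window is 1 of 2 of that gene, on the minus strand at chr14:30491157-30491406, and its core begins 209 bases before the start.
Cacna1d: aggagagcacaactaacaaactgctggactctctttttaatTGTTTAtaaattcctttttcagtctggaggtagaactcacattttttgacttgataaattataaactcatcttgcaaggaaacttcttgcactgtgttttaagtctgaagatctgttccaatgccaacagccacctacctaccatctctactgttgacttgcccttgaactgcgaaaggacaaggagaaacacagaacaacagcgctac

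Scn4b and Cacna1b are shown as the members that were higher in both CA-profile arrays by at least 2-fold. Neither window held the core.
The Scn4b window lies on the plus strand at chr9:45138374-45138623.
Scn4b: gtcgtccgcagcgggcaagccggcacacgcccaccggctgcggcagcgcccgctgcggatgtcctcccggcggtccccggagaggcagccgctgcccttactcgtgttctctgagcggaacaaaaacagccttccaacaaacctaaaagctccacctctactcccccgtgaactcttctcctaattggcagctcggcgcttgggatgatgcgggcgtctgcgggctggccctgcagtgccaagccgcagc
The Cacna1b window lies on the minus strand at chr2:24763153-24763402.
Cacna1b: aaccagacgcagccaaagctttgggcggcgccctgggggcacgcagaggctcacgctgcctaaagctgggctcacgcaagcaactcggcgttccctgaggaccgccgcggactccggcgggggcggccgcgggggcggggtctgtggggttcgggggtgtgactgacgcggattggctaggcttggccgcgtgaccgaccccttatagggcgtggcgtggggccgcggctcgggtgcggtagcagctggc

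No channel gene differed between KO and WT granule-profile arrays beyond the spread of the samples, while 11 of the 30 were outside the granule range in both CA-profile arrays. None of the 30 genes was called between KO and WT by limma at an adjusted p under 0.05, and 0 had an unadjusted p under 0.05, beside 6 of 45037 probe sets called (0.0133%) and 645 of 18193 genes with such an unadjusted p (3.55%). SAM, the test named in the methods, called 0 of the 30 as well, and 5 of all probe sets. It was run here on the deposited signals, whereas the paper used RMA values and a 2-fold cutoff. The paper's own SAM comparison was thus not repeated. Between the profiles, 4 of the 30 genes (13.3%) lay apart, meaning that both CA-profile arrays were on the same side of all 15 granule-profile arrays and each was at least 2-fold from their median. Scn4b and Cacna1b were higher and Cacna1h and Cacna2d4 lower. With the mean of all probe sets of a gene in place of the brightest, 1 member, Scn4b, lay apart. Scn4b has only 1 probe set, so that setting could not change it. Cacna1b, Cacna1h and Cacna2d4, which have more than 1, no longer lay apart. Of all genes 2.17% lay apart on the higher side and 2.09% on the lower. Outside the granule range by any amount were 8 genes on the higher side and 3 on the lower, against 6.87% and 5.27% of all genes. The profiles were sorted by measured markers and only 2 arrays have the CA profile, so these values are given per array and without a test.

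**Figure D1:**
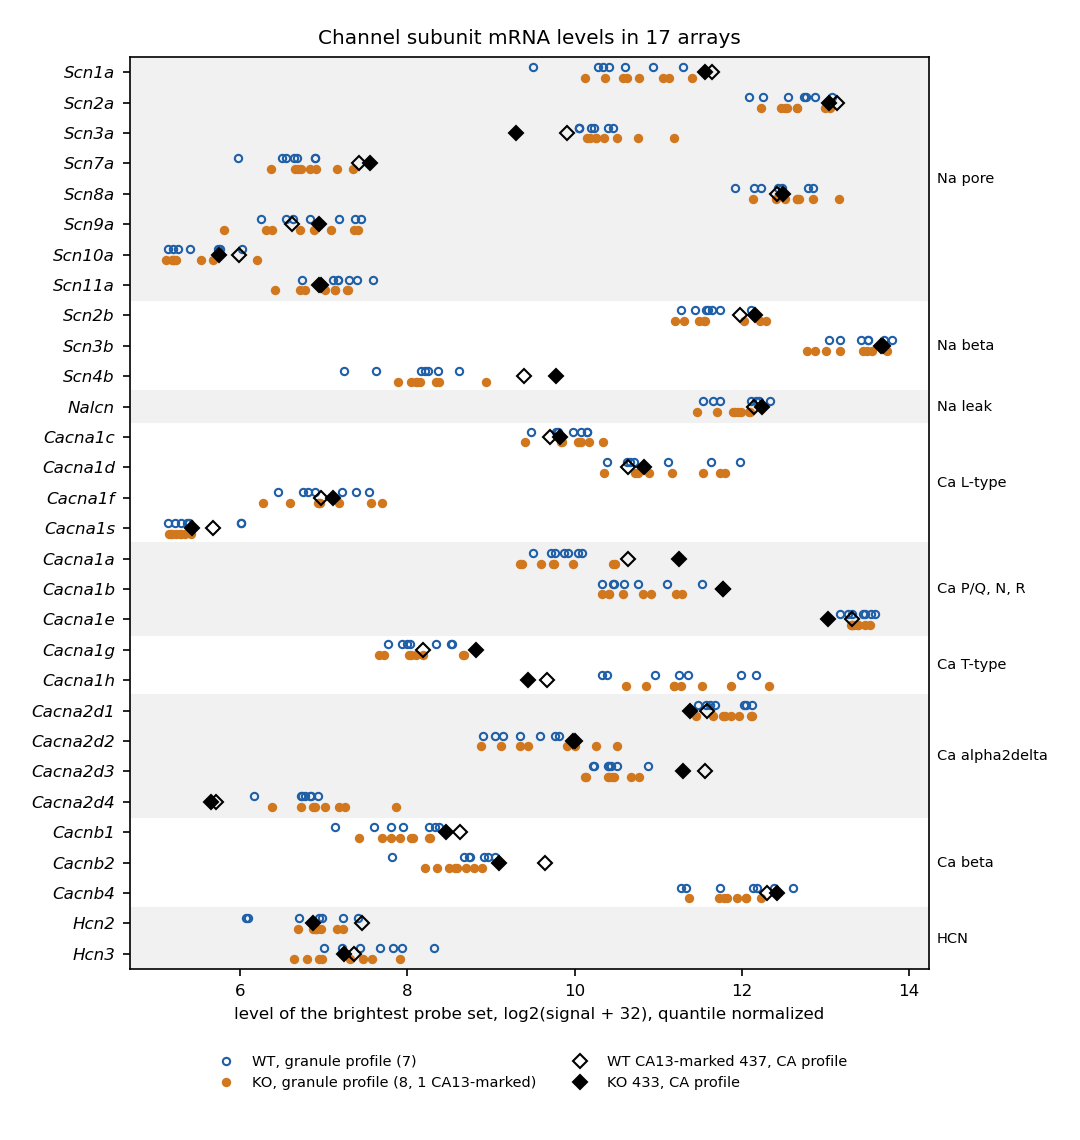
Level of each channel gene, log2(signal + 32) on the horizontal axis, in the 17 arrays. Open blue circles are the 7 WT and filled orange circles the 8 KO arrays of the granule profile, 1 of them CA13-marked; the open diamond is the CA13-marked WT array of 437 and the filled diamond the KO array 433, both of the CA profile. Blue and orange overlap in every row, and the diamonds of Scn4b, Cacna1b, Cacna1h and Cacna2d4 stand off from the circles.

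Among the pore-forming sodium channel genes, Scn1a, Scn7a and Scn3a were outside the granule range in the CA-profile arrays. Scn1a encodes a channel that is prominent in fast-spiking inhibitory neurons and is mutated in Dravet syndrome. It was between 9.51 and 11.40 in the granule-profile arrays (median 10.60), 11.56 in KO 433 and 11.65 in the CA13-marked WT 437. Both were thus above the highest granule-profile array, although by 0.96 and 1.05 from the median only 1 of them passed 2-fold. A second, dimmer Scn1a probe set also had both arrays, at 9.42 and 9.38, above its granule-profile maximum of 9.35. Both arrays passed 2-fold in that probe set, from a median of 8.32. The dimmest was above its maximum of 5.55 only in the CA13-marked WT 437, at 6.27, with KO 433 at 5.18. Against the granule-profile array of the same mark, the brightest was higher by 0.16 for 433 and by 0.70 for 437. Over the 14 fitted arrays it was between 9.51 and 10.37 in the smaller series and between 10.28 and 11.30 in the larger. Scn7a, which encodes a sodium-sensing channel of glia, was at 7.55 and 7.42 above a granule-profile maximum of 7.34. A nearly equally bright Scn7a probe set was inside its range, at 7.68 and 7.73 against a maximum of 7.74. The dimmest was inside too, at 5.53 and 5.59 against a maximum of 6.70. Scn3a, a channel best known from the developing brain, was lower in both CA-profile arrays, at 9.30 and 9.90, than the lowest granule-profile value of 10.05. The dimmer Scn3a probe set was not lower, at 6.47 and 6.57 against a granule range of 5.36 to 6.83 (median 6.29). The CA13-marked KO array of 433 was the highest of the granule profile for the brighter one, at 11.19.

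Scn2a and Scn8a, the channels of the axon initial segment of excitatory neurons, did not leave the granule range in both CA-profile arrays. Scn2a was between 12.09 and 13.09 in granule-profile arrays (median 12.66) and at 13.04 and 13.14 in the CA-profile arrays. Scn8a was between 11.92 and 13.17 (median 12.52), and at 12.49 and 12.42. Scn9a, Scn10a and Scn11a, known from peripheral sensory neurons, were inside the range too. The granule-profile median signal of Scn10a was 6.23, far below the median signal of every array (88.1 to 123), and those of Scn7a and Scn9a were 69.2 and 83.2. The table used here holds no detection calls, so these low values are not read as presence or absence.

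Between KO and WT, the log2 fold changes of the 8 pore-forming sodium channel genes lay between -0.25 and 0.24, with a median of 0.05. Scn8a was between 11.92 and 12.85 in WT (median 12.43) and between 12.13 and 13.17 in KO (median 12.66). Its log2 fold change was 0.24 ± 0.17 (SE), with a 95% interval of -0.11 to 0.59. Scn7a was between 5.97 and 6.89 in WT (median 6.65) and between 6.37 and 7.34 in KO (median 6.73), a difference of 0.24 ± 0.19. For Scn2a the groups were centred on 12.74 in WT and 12.54 in KO, with WT between 12.09 and 13.09 and KO between 12.23 and 12.996. Its difference was -0.04 ± 0.15, with an interval of -0.37 to 0.28. In these genes the groups overlapped and the limma adjusted p was 1.00.

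Scn4b showed the largest difference between the profiles among the channel genes on the higher side. It encodes a beta subunit whose tail acts as an open-channel blocker and supports resurgent sodium current. Scn4b was between 7.24 and 8.94 in the 15 granule-profile arrays (median 8.16), at 9.78 in KO 433 and at 9.39 in the CA13-marked WT 437. These are 3.08-fold and 2.35-fold above the granule-profile median. Against the granule-profile array of the same mark the difference was 1.67 for 433 and 1.77 for 437 on the log2 scale. Scn4b has 1 probe set on the array, so no second reading exists.

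Scn2b and Scn3b, the other measured beta subunits, lay inside the granule range in both CA-profile arrays by their brightest probe sets. Scn2b was between 11.20 and 12.29 in granule-profile arrays and at 12.16 and 11.98 in the CA-profile arrays. Scn3b was between 12.79 and 13.80, and at 13.69 and 13.67. The dimmest Scn2b probe set was lower in both, at 5.61 and 5.70 against a granule range of 5.75 to 7.75 (median 6.74). The next brightest Scn2b probe set was inside its range, at 7.36 and 6.85 against 6.49 to 8.69. Between KO and WT, Scn3b was between 13.05 and 13.80 in WT (median 13.51) and between 12.79 and 13.74 in KO (median 13.18), a difference of -0.23 ± 0.16 with an interval of -0.57 to 0.11. Scn4b differed by 0.19 ± 0.22 between KO and WT, and by 0.38 with all 15 unmarked arrays, where the CA-profile array 433 counts as KO. Neither passed, with a limma adjusted p of 1.00.

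Nalcn, which sets part of the resting sodium leak, was inside the granule range in both CA-profile arrays. It was between 11.47 and 12.34 in granule-profile arrays (median 11.95) and at 12.24 and 12.15 in the CA-profile arrays. WT arrays lay between 11.53 and 12.34 (median 12.11) and KO arrays between 11.47 and 12.09 (median 11.92). The log2 fold change was -0.10 ± 0.14 (SE), with an interval of -0.40 to 0.20.

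Some markers of inhibitory neurons moved with the CA profile. Their average was 8.97 to 9.55 in granule-profile arrays and 9.73 and 9.78 in the CA-profile arrays, and 3 of the 7 measured genes (Sst, Pvalb and Vip) were above the granule range. Pvalb, which marks fast-spiking inhibitory neurons, was between 8.15 and 9.01 in granule-profile arrays and at 9.75 and 9.72 in the CA-profile arrays. Gad1, the enzyme that makes GABA, was between 11.98 and 13.05, and at 11.72 and 12.04. None of the astrocyte, oligodendrocyte, microglia or endothelial markers was outside the granule range in both CA-profile arrays. The part of inhibitory neurons in the values of Scn1a, Scn4b and the calcium channel genes was not tested.

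**Figure D2:**
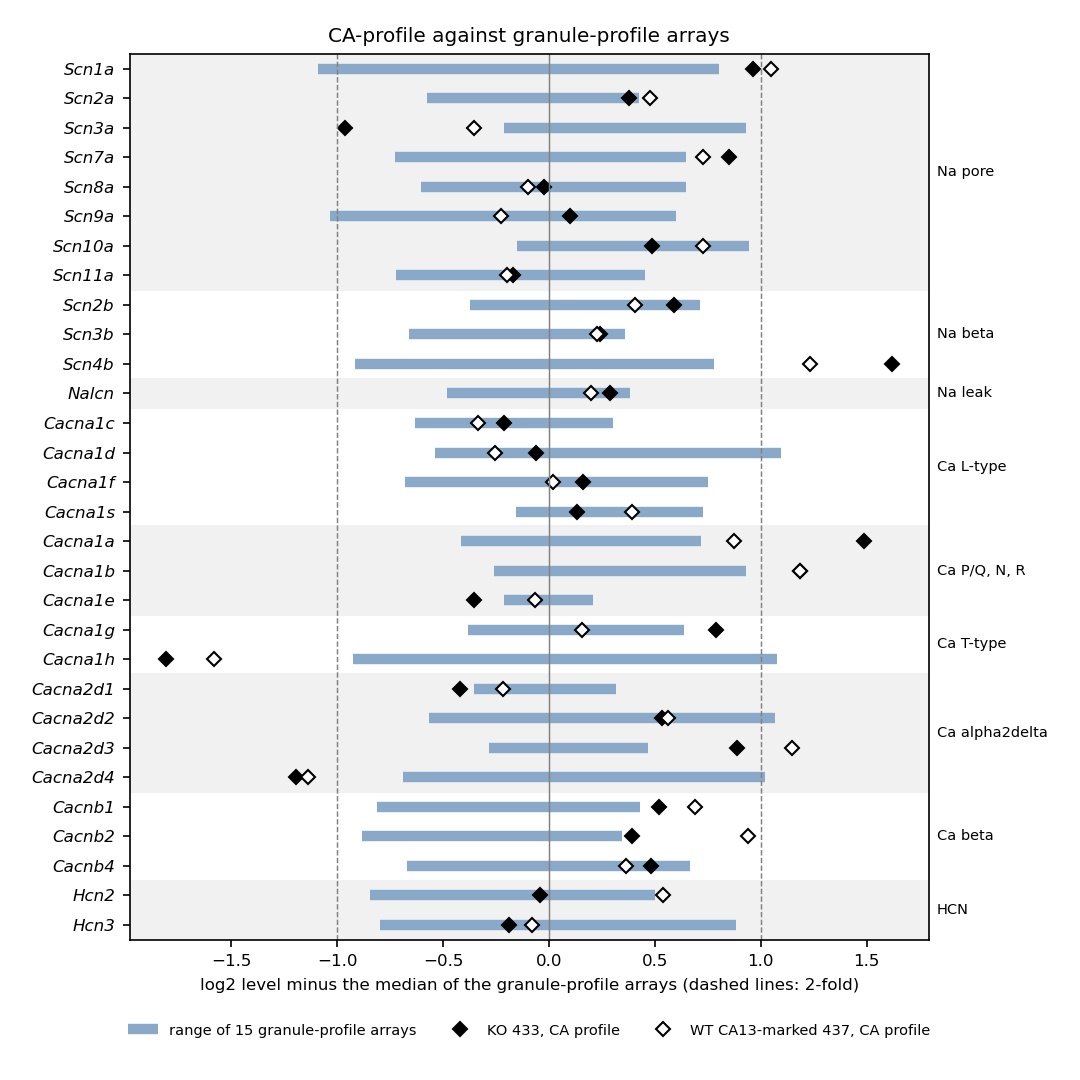
Level of each channel gene relative to the median of the 15 granule-profile arrays, on the log2 scale. Bars span the range of those arrays, the filled diamond is the KO array 433 and the open diamond the CA13-marked WT array of 437, and dashed lines mark 2-fold; for Scn4b and Cacna1b both diamonds are to the right of the bar and past 2-fold, and for Cacna1h and Cacna2d4 to the left.

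The P/Q and N-type calcium channel genes, which serve transmitter release at the presynaptic terminal, were higher in both CA-profile arrays by their brightest probe sets. Cacna1b, the N-type pore and the target of omega-conotoxin, was between 10.33 and 11.52 in granule-profile arrays (median 10.59) and 11.77 in each CA-profile array, or 2.27-fold above the median. Against the granule-profile array of the same mark it was higher by 0.56 for 433 and by 0.67 for 437. Its other 3 probe sets were not both outside their granule range, the next brightest being at 10.49 and 10.86 against a maximum of 10.65. Cacna1a, the P/Q-type pore, was between 9.35 and 10.48 in granule-profile arrays (median 9.76), 11.25 in KO 433 and 10.64 in the CA13-marked WT 437, the latter 1.83-fold above the median. A second Cacna1a probe set was also higher in both, at 7.57 and 7.65 against a maximum of 7.33. The other Cacna1a probe sets were inside their granule range, one at 8.08 and 7.85 against a median of 7.84 and one at 5.50 and 5.44 against a median of 6.09.

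Cacna1e, the R-type pore, did not follow the P/Q and N-type genes. It was between 13.18 and 13.60 in granule-profile arrays (median 13.39) and at 13.04 and 13.32 in the CA-profile arrays. Cacna1e was also the channel gene with the smallest spread between samples, with a standard deviation of 0.12 over the 14 arrays. WT arrays were between 13.18 and 13.60 (median 13.46) and KO arrays between 13.30 and 13.53 (median 13.39). The log2 fold change of -0.01 ± 0.09 had an interval of -0.20 to 0.18. Cacna1a and Cacna1b differed by -0.09 ± 0.17 and -0.07 ± 0.19 between KO and WT. With all 15 unmarked arrays both differences were positive, at 0.10 and 0.07.

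Cacna1h, a T-type calcium channel gene, was the channel gene furthest below the granule range. It was between 10.32 and 12.32 in granule-profile arrays (median 11.25), 9.44 in KO 433 and 9.67 in the CA13-marked WT 437. The CA-profile values were 3.5-fold and 2.99-fold below the median. Against the granule-profile array of the same mark the difference was -1.83 for 433 and -1.58 for 437. Its dimmer probe set was at 6.93 and 5.71, against a granule range of 6.12 to 7.43, so that only WT 437 was lower there. Cacna1g, another T-type pore, was between 7.66 and 8.68 in granule-profile arrays and at 8.83 and 8.19 in the CA-profile arrays, of which only KO 433 was outside.

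Cacna1h also varied more than the other channel genes within the granule profile. Its standard deviation over the 14 arrays was 0.66 and its range 4.00-fold, from WT 385 to KO 390, compared with a median standard deviation of 0.34 over the channel genes and 0.37 over all genes. WT arrays were between 10.32 and 12.17 (median 11.25) and KO arrays between 10.61 and 12.32 (median 11.19). The log2 fold change was 0.16 ± 0.31 (SE), with an interval of -0.49 to 0.81, and leaving out 1 library moved it between 0.003 (without KO 390) and 0.32 (without WT 392). With all 15 unmarked arrays it was -0.08, the CA-profile array then counting as KO. Samples of the smaller series were between 11.36 and 12.32 and those of the larger between 10.32 and 11.99. The series overlapped through KO 212 (11.88) and WT 206 (11.99) of the larger. The rest of the larger series lay below every array of the smaller. The part of the series in this spread was not tested.

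The L-type pore genes, whose channels couple synaptic activity to gene transcription, were inside the granule range in the CA-profile arrays. Cacna1d was between 10.35 and 11.98 in granule-profile arrays (median 10.89), at 10.83 in KO 433 and at 10.64 in the CA13-marked WT 437. Against the granule-profile array of the same mark the differences were -0.91 for 433 and -1.0 for 437. Cacna1c was between 9.41 and 10.34, and at 9.83 and 9.70. Cacna1f, known from the retina, had a median signal of 105.7 and Cacna1s, the pore of skeletal muscle, one of 6.73.

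Between KO and WT, Cacna1d was between 10.39 and 11.98 in WT (median 10.71) and between 10.35 and 11.80 in KO (median 10.89). Its log2 fold change was 0.01 ± 0.26, with an interval of -0.54 to 0.56. Cacna1s was between 5.13 and 6.01 in WT (median 5.36) and between 5.14 and 5.34 in KO (median 5.23). It had the second smallest p of the channel genes, at a difference of -0.25 ± 0.14 (exact permutation p = 0.097, limma adjusted p = 1.00), at signals far below the median of every array. The value was -0.82 with a pseudocount of 1 and -0.08 with the higher pseudocount, so its size rests on that choice. Cacna1c and Cacna1f differed by 0.08 and 0.02.

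The alpha2delta genes differed between the profiles in both directions. These subunits bring calcium channels to the surface, and those of Cacna2d1 and Cacna2d2 bind gabapentin. Cacna2d3 was between 10.13 and 10.88 in granule-profile arrays (median 10.41), at 11.30 in KO 433 and at 11.56 in the CA13-marked WT 437, which is 1.85-fold and 2.22-fold above the median. Against the granule-profile array of the same mark it was higher by 1.17 for 433 and by 1.15 for 437. Cacna2d4 was between 6.16 and 7.87 (median 6.85), and at 5.65 and 5.71. These are signals of 19.2 and 21.2, less than the 32 added before log2, beside a granule-profile median of 82.5, so no fold is given. Cacna2d4 no longer lay apart with the higher pseudocount. That median signal is below the one of every array, and its other 2 probe sets were not lower in both.

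Cacna2d1 and Cacna2d2 did not leave the granule range in both CA-profile arrays. Cacna2d1 was between 11.45 and 12.12 in granule-profile arrays and at 11.38 and 11.59 in the CA-profile arrays. Cacna2d2 was between 8.88 and 10.51, and at 9.98 and 10.01. These are the brightest probe sets. The dimmest Cacna2d2 probe set was just lower in both, at 5.22 and 5.19 against a minimum of 5.23. The next brightest was inside its range, at 5.56 and 5.32 against 5.23 to 6.52.

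Cacna2d2 had the smallest p of the channel genes between KO and WT and did not pass. It was between 8.90 and 9.81 in WT (median 9.35) and between 9.12 and 10.51 in KO (median 9.91). The highest KO arrays lay above every WT array while the lowest were inside the WT range. The log2 fold change was 0.42 ± 0.22 (SE), with a 95% interval of -0.04 to 0.89 (unadjusted limma p = 0.0699, exact permutation p = 0.099, limma adjusted p = 1.00). It was 0.45 with all 15 unmarked arrays, 0.63 among arrays of the larger series and -0.10 among those of the smaller. The smaller series has only 2 arrays of each genotype. The next brightest Cacna2d2 probe set, a dim one, gave -0.04. Cacna2d1 was between 11.48 and 12.12 in WT (median 11.69) and between 11.45 and 12.12 in KO (median 11.87), a difference of 0.08 ± 0.13. Cacna2d3 and Cacna2d4 differed by 0.03 ± 0.13 and 0.19 ± 0.18. With all 15 unmarked arrays these differences were 0.14 and 0.03.

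Of the calcium channel beta subunits, which bind the pore inside the cell and aid its trafficking, Cacnb1 and Cacnb2 were just above the granule range in both CA-profile arrays. Cacnb1 was at 8.46 and 8.63 against a maximum of 8.37. Cacnb2 was at 9.09 and 9.64 against a maximum of 9.05. These are the brightest probe sets, and no other probe set of either gene was above its granule range in both arrays. The next brightest of Cacnb1 was at 8.57 and 7.75 against a maximum of 8.58. That of Cacnb2 was at 6.39 and 5.75 against a maximum of 6.33. Cacnb4, mutated in the lethargic mouse, was between 11.28 and 12.61, and at 12.43 and 12.31. Between KO and WT, Cacnb4 was between 11.28 and 12.61 in WT (median 12.14) and between 11.38 and 12.05 in KO (median 11.82), a difference of -0.13 ± 0.20 with an interval of -0.55 to 0.28. Cacnb1 and Cacnb2 differed by -0.04 and -0.11.

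The HCN genes Hcn2 and Hcn3, whose channels carry the hyperpolarization-activated current, were not outside the granule range in both CA-profile arrays. Hcn2 was between 6.07 and 7.41 in granule-profile arrays and at 6.88 and 7.45 in the CA-profile arrays, with a median signal of 84.4. Hcn3 was between 6.64 and 8.32, and at 7.25 and 7.36. Between KO and WT, Hcn3 had the lowest log2 fold change of the channel genes. WT arrays were between 7.0 and 8.32 (median 7.67) and KO arrays between 6.64 and 7.91 (median 7.31). The difference was -0.39 ± 0.24 (SE), with an interval of -0.89 to 0.11 (exact permutation p = 0.133, limma adjusted p = 1.00). Hcn2 differed by 0.19 ± 0.22.

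**Figure D3:**
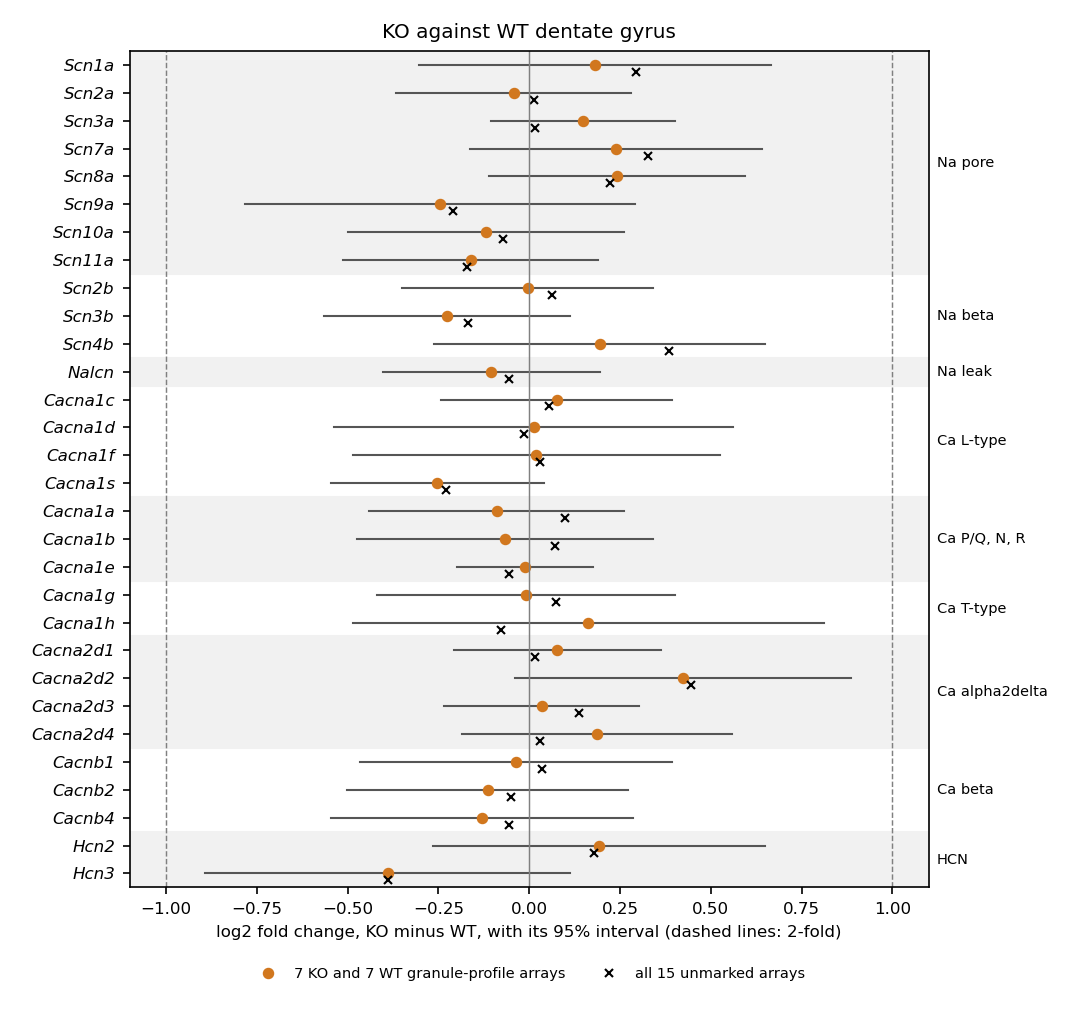
Log2 fold change of KO against WT for each channel gene. Circles and lines are the value and its 95% interval from limma over 7 KO and 7 WT granule-profile arrays, crosses the value with all 15 unmarked arrays, and dashed lines mark 2-fold; every line crosses 0 and lies within 2-fold.

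Over the 30 channel genes, the log2 fold changes of KO against WT ran from -0.39 to 0.42, with 16 negative and 14 positive. Their median was -0.01, beside 0.01 over all genes, and 23 of the 30 were within 0.2 of 0. The 95% intervals of all 30 lay within 2-fold in either direction, and those of 13 within 0.5 on the log2 scale. Standard errors were between 0.09 and 0.31, and differences inside these intervals remain possible with 7 arrays a group. The intervals are per gene and not adjusted, so they do not mark the size of difference that could be called. The groups overlapped for all 30. Over their 74 probe sets, 1 had an unadjusted limma p under 0.05, the dimmest of 5 for Scn9a at -0.46, and 0 were called. For 0 of the 30 genes did the 4 arrays of the smaller series lie all above or all below the 10 of the larger, against 3.81% and 2.47% of all genes.

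Genes of proteins that bind these channels, and the Cacng genes, which are named after a calcium channel subunit, were examined in the same way. Of 28 listed partners 27 were measured, and 0 were called between KO and WT. An unadjusted p under 0.05 was found for 1 of the 27, near the share over all genes (3.55%). The range was -0.54 to 0.63 and the median -0.03 on the log2 scale. Cacng3, a TARP of AMPA receptors named after the calcium channel gamma subunit, was between 6.96 and 7.75 in WT (median 7.16) and between 6.0 and 7.36 in KO (median 6.75). Its difference of -0.54 ± 0.22 made it the only partner with an unadjusted p under 0.05 (exact permutation p = 0.031, limma adjusted p = 1.00). Cacng5, of the same family, differed by 0.63 ± 0.30, the calcium channel-inhibiting GTPase Gem by 0.31 ± 0.17 and Sptbn4, the spectrin of the axon initial segment, by -0.30 ± 0.18.

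Between the profiles, Rem2 and Stac lay apart among the partners, both higher, or 2 of 27 beside 2.17% of all genes on that side. Rem2, a GTPase of the Gem family that inhibits high voltage-activated calcium channels, was between 6.68 and 7.78 in granule-profile arrays (median 7.03), 11.19 in KO 433 and 10.57 in the CA13-marked WT 437. This 17.9-fold and 11.6-fold difference exceeded that of every channel gene. Its probe set is of the type that can also match other transcripts. Stac, an adaptor of L-type channels, was between 5.32 and 7.0 (median 6.53), and at 8.28 and 8.74. Fgf12, Pex5l and Nfasc were higher in both arrays by less, and Fgf13, which binds the tail of sodium channels, lower, at 13.03 and 13.01 against a minimum of 13.10. Ank3, the anchor of sodium channels at the initial segment, was between 12.41 and 14.06, and at 12.75 and 12.84.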

How the data were processed

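RNA of 17 samples had been hybridised to Affymetrix mouse arrays. The authors deposited a linear signal intensity for each probe set, with MAS5 named in the submitters' processing notes and RMA and SAM in the paper. Every deposited array had a mean of 500 after 2% was trimmed from each end. Without the 64 control probe sets, log2(signal + 32) was quantile normalized over all 17 arrays, which understates changes of dim probe sets. Genotype was fitted with limma 3.58.1 (R 4.3.3) over 45037 probe sets, with a variance trend and Benjamini-Hochberg adjustment, and the steps were tested on simulated data. Single genes had a two-sided exact permutation test over samples.

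The platform annotation gave 34945 probe sets with 1 symbol and 932 with several, which were not used, and 0 symbols changed for the 34741 found by Entrez ID in RefSeq. No source used here states the probe sets' genome build.

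The members, lists, arrays and tests were chosen with earlier results of these data known. Values of KO and WT are given for the 6 members with the smallest p and the brightest of each family, profile values for those lying apart, and of the partners the 4 with the smallest p and those apart. Other values were picked after they were seen. Alternatives covered samples, scaling, pseudocounts of 1 and 128, a filter on dim probe sets, array series, the Gapdh 3' to 5' ratio, array weights, variance trend, SAM with 100 permutations, other probe sets and leaving out each sample.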

Additional observations from a re-analysis of the deposited data

Results flagged for a closer look

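The lowest or highest sample stood off from the rest of its group for 4 of the 60 gene and genotype groups checked by Dixon's criterion, which by chance marks about 1 in 20. Cacna2d4 was 6.16 in WT 206 (6.73 to 6.93 in the other WT arrays). Cacnb2 was 7.82 in WT 392 (8.68 to 9.05). Scn10a was 6.20 in KO 903 (5.11 to 5.53 in the other KO arrays). Scn7a was 5.97 in WT 393 (6.50 to 6.89).

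The CA-profile array lay on opposite sides of the granule-profile array of its own mark in the KO pair of 433 and the WT pair of 437 for 9 of the 30 members. These differences rest on 1 pair each and were not tested. On the log2 scale the difference was 0.20 for 433 and -0.08 for 437 in Cacnb4, -9.5e-05 and 0.04 in Hcn2, and 0.30 and -0.57 in Hcn3. It was 0.16 and -0.02 in Nalcn, 0.55 and -0.23 in Scn11a, and -0.0207 and 0.59 in Scn2a. It was -0.12 and 0.39 in Scn2b, 0.19 and -0.04 in Scn3b, and -0.0245 and 0.50 in Scn8a.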

How the results depend on the processing

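No member was called under any of the alternatives run. The 6 probe sets called over the whole array became 2 within the larger array series, 0 within the smaller (where the members' smallest limma adjusted p was 0.998), 11 with array weights and 3 to 7 when a sample was left out. The median of the members stayed between -0.04 and 0.04. An unadjusted p under 0.05 appeared for Cacna2d2 with all 15 unmarked arrays, with the series as a block, within the larger series and without KO 391, KO 390, WT 385 or WT 393, for Hcn3 without KO 386 and for Cacna1s without WT 385. The direction of uncalled named members turned for Cacna1d (-0.013), Cacna1h (-0.0783) and Scn2a (0.0145) with all 15 unmarked arrays, and for Scn2a (0.017) with the CA13-marked array of 433 added. It turned for Cacna1d (-0.0281) and Cacna2d1 (-0.0382) within the larger series, and for Cacna1e (0.13), Cacna2d2 (-0.10) and Cacnb4 (0.28) within the smaller series. Leaving out a sample moved Cacna1d between -0.12 and 0.17, Cacna1e between -0.0495 and 0.0205, Scn2a between -0.13 and 0.0341, and, with no change of direction, Cacna1h between 0.003 and 0.32 and Cacnb4 between -0.24 and -0.0207. Other probe sets gave 0.40 for Cacna1e, -0.12, -0.20 and -0.17 for Cacna2d1, -0.043 for Cacna2d2, 0.0338 for Nalcn and 0.11 and 0.15 for Scn2a. The cause of these turns was not tested. Of the 13 members named by the rule, the other 353 values kept their direction, although many sizes moved. SAM, the fit without a variance trend, the series as a block and the filter on dim probe sets left each fold change as it was. Their values are among the 353 and are no test of direction. Of the other members, the larger and the smaller series gave -0.0371 and 0.77 for Scn4b, 0.0415 and -0.42 for Cacna1a, -0.13 and 0.20 for Cacnb1, and -0.22 and 0.15 for Cacnb2.

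The 4 members apart between the profiles became 8 at 1.5-fold, 11 at any amount outside the range, 1 (Scn4b) with the mean of all probe sets of a gene, and 3 (without Cacna2d4) with the higher pseudocount. Scn4b has only 1 probe set, so the mean over probe sets could not change it. With both same-mark pairs at least 2-fold apart they were 4, of which 3 were shared. Only 2 arrays had the CA profile. Changes of the 6 members with a median signal under 100 are limited by their dimness.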
